A study of Mus musculus with 24 samples.

Results

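Expression of 9 genes was followed in neural stem and progenitor cells (NSPCs) of the mouse cortex: the homeobox transcription factor genes Dlx1, Dlx2, Dlx5 and Dlx6, the long non-coding RNA gene Dlx6os1, the zinc finger transcription factor genes Sp8 and Sp9, and Gad1 and Gad2, which encode the enzymes that make GABA. They were taken by gene symbol as 9 of the 26411 genes in each count table. RNA was sequenced from 24 libraries in 6 groups of 4. NSPCs of C57BL/6 embryos at E12.5 came from the dorsal telencephalon, from which the cortex forms, of matings between heterozygotes, with 1 embryo for each cell line. Kat6a encodes a histone acetyltransferase, and its null allele lacks exons in the germline, so that no promoter or Cre restricted the loss. Wildtype (Kat6a+/+), heterozygous (Kat6a+/-) and homozygous null (Kat6a-/-) NSPCs were kept proliferating for 3 days with the growth factors FGF2 and EGF. Others were cultured for 3 days in differentiation medium on poly-L-ornithine and laminin, with serum and without these factors. The study reported that proliferating Kat6a+/+ cells grew as floating neurospheres, whereas Kat6a+/- colonies were smaller and tended to attach. Kat6a-/- cells formed few floating colonies, attached to the plastic and multiplied more slowly. Growth form and genotype therefore cannot be told apart in proliferating cells. The comparisons ask what loss of 1 or both copies of Kat6a does to these genes in each condition, and what differentiation does to them in each genotype.

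In the embryo, DLX1 and DLX2 are made first, in progenitors of the ventral telencephalon, and DLX5 and DLX6 follow as cells leave the cycle. Together they drive GABAergic interneuron fate and migration, partly through SP8 and SP9, which interneurons destined for the cortex and the olfactory bulb require, and they raise transcription of Gad1 and Gad2. Dorsal progenitors mainly give rise to glutamatergic neurons, but cultured with growth factors they can acquire ventral genes.

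Library totals ranged from 7826660 to 40838203 counts, so that 1 count was worth between 0.0253 and 0.129 CPM, the count scaled to library size that is the unit of all levels here. Kat6a itself, counted over the whole gene, averaged 395 CPM in proliferating Kat6a+/+ and 355 CPM in proliferating Kat6a-/- NSPCs (SD 16.8 and 24.6, n = 4 each), and 267 and 191 CPM in differentiating NSPCs (SD 24.2 and 43.2, n = 4 each), which does not check the genotype labels, because the allele removes only part of the transcript. Reads of Y-linked genes were present in 3 of 4 Kat6a+/+, 1 of 4 Kat6a+/- and 1 of 4 Kat6a-/- libraries in both conditions, so sex and genotype were partly confounded. Of the 6 embryo labels found in both conditions, 5 matched in their Y-linked reads. In the remaining case, Kat6a+/+ replicate 1, these reads summed to 0.0490 CPM in the proliferating and 211 CPM in the differentiating library, which goes against a shared embryo, and the results are therefore also given without these libraries. Proliferating and differentiating cells were extracted with different RNA kits, so kit and condition cannot be told apart. In bulk RNA, fewer cells that express a gene and less RNA per cell cannot be told apart either.

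Several defining markers of interneurons and ventral lineages were absent or nearly so in these cultures. Nkx2-1, which specifies the medial ganglionic eminence, had 0 counts in all 24 libraries, and so had Isl1, a marker of striatal neurons. Lhx6, which marks cortical interneurons of medial origin, had 4 counts in total, Lhx8 had 2, Sst 5 and Vip 1. Other genes went the other way. The 14 interneuron subtype genes described below, Sst and Vip included, summed to 183 to 370 CPM in differentiating Kat6a+/+ libraries, and 3 of them averaged over 1 CPM there. Slc32a1, the vesicular GABA transporter that GABAergic neurons need, had 9, 2, 2 and 8 counts in the differentiating Kat6a+/+ libraries, 0, 8, 1 and 0 in the Kat6a+/- libraries and 0 in all 4 Kat6a-/- libraries, and 1 count in all proliferating libraries together. It was thus detected, at few counts, in every differentiating Kat6a+/+ library. The 9 genes are therefore called by name below, as DLX, SP and GAD genes. Markers of the dorsal lineage were also scarce, with Emx1 at 7 and Slc17a7 at 47 counts over all libraries.

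The genes lie in a few places. Dlx1 (chr2:71358457-71364325, plus strand, GRCm39) and Dlx2 (chr2:71373752-71377102, minus strand) are transcribed towards each other from start sites 18.6 kb apart, and Dlx6 (chr6:6862989-6868568, plus strand) and Dlx5 (chr6:6877804-6882092, minus strand) likewise from 19.1 kb apart. Dlx6os1 (chr6:6749740-6871632, minus strand) spans the whole of Dlx6 on the opposite strand without sharing exon bases in their canonical transcripts, and Dlx1 lies likewise inside the span of the antisense gene Dlx1as. The libraries were stranded but the strand setting of the counting is not given in the sources used here, so reads of these partners may not be fully separated. Sp9 (chr2:73102269-73115050, plus strand) and Gad1 (chr2:70383416-70432372, plus strand) are on the chromosome of Dlx1 and Dlx2, as is Gad2 (chr2:22511862-22583886, plus strand), and Sp8 is on chromosome 12 (chr12:118810064-118816311, plus strand).

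The 250 bases before the start site of the canonical transcript were searched on both strands for 3 motifs: TAATTA, the core that DLX and other homeodomains bind, GGGCGG, the GC box of SP factors, and CAGCTG, an E-box. The 4 windows with a match are shown, chosen by the match alone, with the matches in capitals. They are, 5′ to 3′ in the direction of transcription, chr2:71377103-71377352 for Dlx2, chr6:6862739-6862988 for Dlx6, chr6:6869552-6869801 for Dlx6os1 and chr2:73102019-73102268 for Sp9, all in GRCm39. The window of Dlx6os1 lies within the span of the gene, since its canonical transcript starts downstream of the longest one.
Dlx2: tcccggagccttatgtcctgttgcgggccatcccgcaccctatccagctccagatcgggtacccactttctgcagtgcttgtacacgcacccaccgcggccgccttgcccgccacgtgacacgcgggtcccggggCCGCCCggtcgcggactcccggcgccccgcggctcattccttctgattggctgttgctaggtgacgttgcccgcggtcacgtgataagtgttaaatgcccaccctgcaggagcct
Dlx6: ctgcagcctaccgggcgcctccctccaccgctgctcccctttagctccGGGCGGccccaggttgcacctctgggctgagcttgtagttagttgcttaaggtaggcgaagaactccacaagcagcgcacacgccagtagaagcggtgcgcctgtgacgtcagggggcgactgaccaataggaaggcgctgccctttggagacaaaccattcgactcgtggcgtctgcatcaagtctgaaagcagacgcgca
Dlx6os1: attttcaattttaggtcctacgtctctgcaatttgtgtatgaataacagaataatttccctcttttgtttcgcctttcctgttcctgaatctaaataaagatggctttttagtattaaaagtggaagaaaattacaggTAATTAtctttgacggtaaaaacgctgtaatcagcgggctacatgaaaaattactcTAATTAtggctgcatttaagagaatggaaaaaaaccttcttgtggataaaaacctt
Sp9: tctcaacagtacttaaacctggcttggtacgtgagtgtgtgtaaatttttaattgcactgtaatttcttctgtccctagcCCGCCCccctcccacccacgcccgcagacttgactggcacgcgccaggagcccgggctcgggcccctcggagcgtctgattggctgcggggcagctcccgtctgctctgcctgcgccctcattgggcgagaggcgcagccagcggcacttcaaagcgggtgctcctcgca
TAATTA occurred 2 times, starting 112 and 56 bases before the Dlx6os1 start site, and in 5.2% of 21757 windows of this length before protein-coding genes. GGGCGG occurred once in each of Dlx2, Dlx6 and Sp9 and in 36.3% of all windows, and CAGCTG in none of the 9 and in 11.9% of all. Dlx1 and Dlx5, which were also lower in differentiating Kat6a-/- NSPCs, had no match to any of the motifs. A match describes letters and not a site in use.

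Differentiation of Kat6a+/+ NSPCs raised the DLX genes and Sp9 from near the detection limit. Dlx2 was at 0.405, 0.421, 0.905 and 0.381 CPM in the 4 proliferating libraries and at 13.4, 2.57, 5.41 and 7.50 CPM in the 4 differentiating ones, without overlap (as for 36.7% of all genes in that direction), a log2 fold-change of 3.64 (SE 0.93, FDR 0.00141). Dlx1 (log2 fold-change 3.17, FDR 0.00765), Dlx5 (3.79, FDR 0.000572), Dlx6 (2.35, FDR 0.0299), Dlx6os1 (3.98, FDR 0.00282) and Sp9 (2.16, FDR 0.00334) rose too. Gad1 went the other way: it had the highest level per kilobase of the 9 in proliferating Kat6a+/+ NSPCs (mean 1.09 CPM per kb), was at 2.58, 3.25, 3.72 and 7.74 CPM, and fell to 1.82, 0.655, 0.193 and 1.76 CPM (log2 fold-change -1.98, SE 0.57, FDR 0.00390). Sp8 was called in neither direction (1.10, 95% confidence interval -0.50 to 2.69), and Gad2, at 0 in all 12 proliferating libraries, remained below the filter on low counts. Thus 6 of the 7 tested coding genes were called, 5 higher and 1 lower, where 73.0% of all genes were called, 36.7% higher and 36.3% lower. Without the doubtful proliferating replicate 1 the Dlx6 call was lost (FDR 0.0994) and Sp8 was called (2.23, FDR 0.0330), and without the differentiating replicate 1 Dlx6 was lost (FDR 0.0740).

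**Figure D1:**
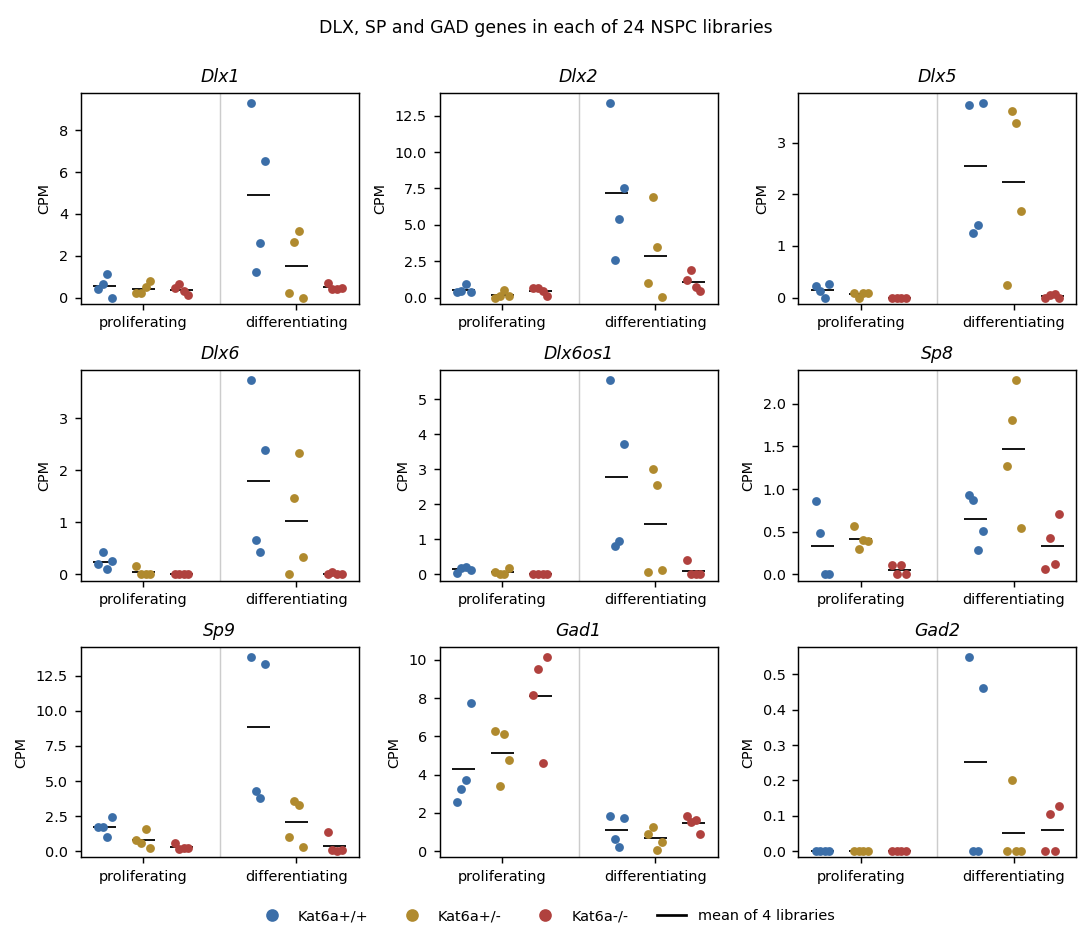
Level of each gene (CPM, linear axes that differ between panels) in the 4 libraries of each genotype in proliferating and differentiating NSPCs, with bars at the means. In differentiating NSPCs the Dlx5 points of the Kat6a-/- group lie between 0 and 0.0603 CPM, below all Kat6a+/+ points, which start at 1.26 CPM.

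Per kilobase of transcript, the differentiating Kat6a+/+ order was Dlx2 (mean 2.92 CPM per kb), Sp9 (2.40), Dlx5 (1.80), Dlx6 (1.69), Dlx1 (1.65), Dlx6os1 (0.609), Gad1 (0.279), Sp8 (0.142) and Gad2 (0.0450). All 8 neighbouring pairs in that order overlapped over their 4 libraries, so only distant members differed in level beyond the spread. In differentiating Kat6a-/- NSPCs the order began with Dlx2 (0.438 CPM per kb) and Gad1 (0.373) and ended with Dlx5 (0.0201), Dlx6 (0.0124) and Gad2 (0.0105), again with all 8 neighbouring pairs overlapping.

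In differentiating NSPCs the DLX genes and Sp9 were far lower without Kat6a, whereas Gad1 was not. Dlx5, which acts late in interneuron precursors, was at 3.74, 1.26, 1.40 and 3.77 CPM in the Kat6a+/+ libraries and at 0, 0.0531, 0.0603 and 0 CPM in the Kat6a-/- libraries. This amounted to 2 counts against 210, a ratio of 0.0118 (95% exact binomial interval 0.00142 to 0.0431, counting error only), and a fitted log2 fold-change of -4.03 (SE 0.64, FDR 0.000238). Its neighbour Dlx6 was at 3.74, 0.655, 0.434 and 2.39 CPM against 0, 0.0531, 0 and 0 CPM, 1 count against 146 (ratio 0.00848, interval 0.000213 to 0.0480, log2 fold-change -3.78, SE 0.89, FDR 0.00355). Both genes were thus at or near 0 in all 4 Kat6a-/- libraries, and neither group overlapped the other.

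Dlx6os1, the antisense transcript of that locus, was at 5.56, 0.819, 0.965 and 3.73 CPM in Kat6a+/+ and at 0.413, 0, 0 and 0 CPM in Kat6a-/- NSPCs (log2 fold-change -4.09, SE 0.90, FDR 0.00250, from the fit over genes of every biotype). Dlx1 and Dlx2, which stand above Dlx5 and Dlx6 in the cascade, kept some expression. Dlx1 was at 9.30, 1.20, 2.61 and 6.54 CPM against 0.688, 0.425, 0.422 and 0.452 CPM (log2 fold-change -3.07, SE 0.77, FDR 0.00503), and Dlx2 at 13.4, 2.57, 5.41 and 7.50 CPM against 1.24, 1.91, 0.723 and 0.452 CPM (-3.11, SE 0.68, FDR 0.00208). The lowest Kat6a+/+ library was replicate 2 for both, and it still lay above every Kat6a-/- library.

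Sp9 was lower as well. It was at 13.9, 4.31, 3.81 and 13.3 CPM in Kat6a+/+ and at 1.38, 0.106, 0 and 0.0646 CPM in Kat6a-/- NSPCs (log2 fold-change -5.41, SE 0.76, FDR 0.000110), and its pooled counts gave a ratio of 0.0391, above those of Dlx5 and Dlx6. Most of the 23 Kat6a-/- counts, 20, came from replicate 1, which also had the highest Dlx1 and Dlx6os1 of its group. Sp8, the paralogue of Sp9, was low throughout, at 0.936, 0.874, 0.290 and 0.503 CPM against 0.0688, 0.425, 0.121 and 0.710 CPM, and although it was called (-1.40, SE 0.46, FDR 0.0211) its groups overlapped and the call was lost in 8 of 10 other settings (FDR up to 0.517).

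Gad1, which makes most of the GABA in interneurons but is also found outside neurons, was at 1.82, 0.655, 0.193 and 1.76 CPM in Kat6a+/+ and at 1.86, 1.54, 1.63 and 0.904 CPM in Kat6a-/- differentiating NSPCs. Its groups overlapped and the change was not called (0.86, 95% confidence interval -0.66 to 2.38, FDR 0.317). Gad2 had 21 counts in the Kat6a+/+ libraries, all of them in replicates 1 and 4, and 4 counts in the Kat6a-/- libraries, too few to be tested.

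Of the 7 coding genes tested in this comparison, 6 were therefore called and all 6 were lower, where 54.4% of the 13339 genes tested were called, 27.7% lower and 26.7% higher. Their median log2 fold-change was -3.11, against -0.02 over all genes. Dlx5 had 2 counts and Dlx6 had 1 count in the Kat6a-/- libraries. Both therefore passed the filter on low counts through the other genotypes, and could hardly have come out higher. The genes were also chosen with earlier results of these data known. The shares of all genes given here are thus a description and not a test of the set. Dlx1, Dlx2, Dlx5, Dlx6, Dlx6os1 and Sp9 did not overlap between genotypes, which held in that direction for 14.7% of all genes. These calls leaned on the quality weights of the libraries, of which Kat6a-/- replicate 3 carried 69.0% of its group: without weights 3 of 7 were called (Dlx5, Dlx6 and Sp9), without Kat6a-/- replicate 1 only Sp9 was called of the 7 (and Dlx6os1, FDR 0.0144) and without replicate 3 none, although the fitted changes of the 4 DLX genes remained between -4.14 and -2.31 and that of Sp9 at -5.63 and -4.34. Count-based tests without weights, edgeR and DESeq2, each called 5, all but Sp8.

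Sex and litter moved with genotype, and the calls fell to 2 (Dlx5 and Sp9) with Y-linked reads in the model and to 1 (Dlx5, FDR 0.0335) with a term for each litter. Among the libraries with Y-linked reads, Dlx5 was between 1.40 and 3.77 CPM in 3 Kat6a+/+ libraries and at 0.0603 CPM in the Kat6a-/- library. Among those without, it was at 1.26 CPM in the Kat6a+/+ library and between 0 and 0.0531 CPM in 3 Kat6a-/- libraries. Sp9 in the same libraries was between 3.81 and 13.9 CPM against 0 CPM, and at 4.31 CPM against 0.0646 to 1.38 CPM, and Dlx2 was between 5.41 and 13.4 CPM against 0.723 CPM, and at 2.57 CPM against 0.452 to 1.91 CPM. The Kat6a-/- level was thus the lower within either set for all 3 genes. Without the doubtful Kat6a+/+ replicate 1, 5 of 7 remained called, and Sp8 did not (FDR 0.0982).

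**Figure D2:**
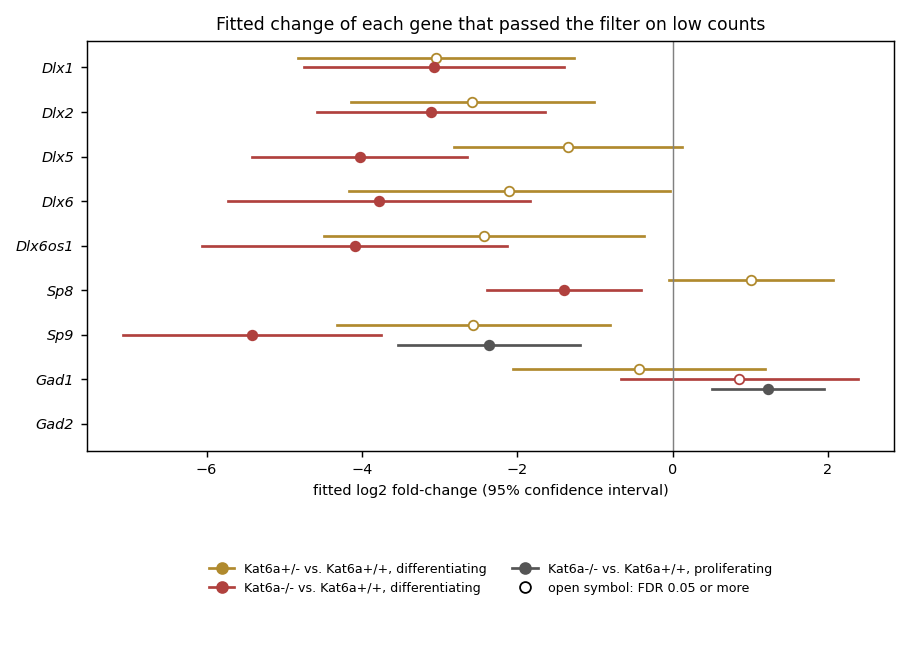
Fitted log2 fold-change with its 95% confidence interval for each gene that passed the filter on low counts, in 3 comparisons with Kat6a+/+. In differentiating Kat6a-/- NSPCs all intervals but that of Gad1 lie below 0, and the open symbols of Kat6a+/- NSPCs mark changes that were not called.

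In proliferating NSPCs Sp9 was lower without Kat6a, and Gad1 was called higher, though not in every setting. Sp9 was at 1.74, 1.74, 1.01 and 2.41 CPM in Kat6a+/+ and at 0.566, 0.129, 0.219 and 0.199 CPM in Kat6a-/- libraries, without overlap, as for 17.6% of all genes in that direction (log2 fold-change -2.36, SE 0.54, FDR 0.00620). Gad1 was at 2.58, 3.25, 3.72 and 7.74 CPM against 8.15, 9.54, 4.60 and 10.2 CPM, with overlap through Kat6a+/+ replicate 4 and Kat6a-/- replicate 3 (log2 fold-change 1.22, SE 0.33, FDR 0.0159). These 2 were the only ones of the 8 coding genes to pass the filter, and both were called, where 30.0% of 12276 genes were called, 13.8% lower and 16.2% higher. The Gad1 call was lost without the doubtful Kat6a+/+ replicate 1 (0.83, FDR 0.111), without Kat6a-/- replicate 4 (FDR 0.0537), with edgeR (FDR 0.0501) and with a term for each litter (FDR 0.215), whereas Sp9 was called in all of these. Among libraries with Y-linked reads, Gad1 was at 3.25 to 7.74 CPM in 3 Kat6a+/+ libraries and at 4.60 CPM in the Kat6a-/- library, so it was not higher there. Among those without, it was at 2.58 CPM in the Kat6a+/+ library, the doubtful replicate 1, and at 8.15 to 10.2 CPM in 3 Kat6a-/- libraries. Sp9 was lower in Kat6a-/- within either set, at 1.01 to 2.41 against 0.219 CPM, and at 1.74 against 0.129 to 0.566 CPM.

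The other 7 genes were too low in proliferating NSPCs to be tested, and are described by their counts. Dlx5 had 13 counts in the 4 Kat6a+/+ libraries and 0 in the Kat6a-/- libraries. Setting the Kat6a-/- group to a floor of 3 counts gave a 2.09-fold difference, which takes the Kat6a+/+ counts as exact. The exact binomial interval of the ratio reached 0.679. Of the 13 counts, 9 came from replicate 1, whose Y-linked reads did not match those of the other library with its embryo label. Without replicate 1 the floor value, computed after seeing the data, was 1.38-fold. Dlx6 had 18 against 0 counts (2.90-fold at this floor, or 3.46-fold without that replicate), and the interval of its ratio reached 0.471. Dlx6os1 had 8 against 0 counts (1.29-fold at this floor, or 2.08-fold without that replicate). The interval of the Dlx6os1 ratio reached 1.21, so this gene was not shown to be lower. Genes of the Dlx5 and Dlx6 locus thus had no read in any proliferating Kat6a-/- library. Dlx1 had 39 against 13 counts, with ranges of 0 to 1.11 and 0.0997 to 0.644 CPM. Dlx2 had 35 against 16 counts, with ranges of 0.381 to 0.905 and 0.0997 to 0.679 CPM. Scaled to library size, the Kat6a-/- to Kat6a+/+ ratio was 0.69 for Dlx1 (interval 0.338 to 1.32) and 0.946 for Dlx2 (0.489 to 1.76). Both intervals included 1, so neither gene was shown to be lower. Sp8 had 42 counts against 2 (ratio 0.0986, interval 0.0116 to 0.379), but 34 of the 42 came from the doubtful Kat6a+/+ replicate 1 and replicates 3 and 4 had none. Gad2 had no count in either genotype.

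Kat6a+/- NSPCs stood between the other genotypes for several genes, without a call. In differentiating cells Dlx1 was at 0.241, 2.67, 3.17 and 0 CPM, Dlx2 at 1.02, 6.89, 3.50 and 0.0672 CPM and Sp9 at 1.02, 3.61, 3.28 and 0.269 CPM in the 4 Kat6a+/- libraries. Replicates 2 and 3 were therefore near the lower Kat6a+/+ libraries, whereas replicates 1 and 4 were near the Kat6a-/- libraries. The fitted log2 fold-change vs. Kat6a+/+ was -3.05 for Dlx1 (95% confidence interval -4.83 to -1.27, FDR 0.199), -2.58 for Dlx2 (-4.14 to -1.01, FDR 0.200) and -2.56 for Sp9 (-4.33 to -0.80, FDR 0.231). In this fit Kat6a+/- replicate 1 carried 50.2% of the quality weight of its group, and the doubtful Kat6a+/+ replicate 1 carried 42.0%. Pooled counts, without these weights, gave Kat6a+/- to Kat6a+/+ ratios of 0.317 for Dlx1, 0.399 for Dlx2 and 0.232 for Sp9. Sp9 was the only gene of the 9 whose Kat6a+/+ and Kat6a+/- ranges did not overlap, which held in that direction for 1.37% of all genes.

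The later DLX genes, Sp8 and Gad1 overlapped Kat6a+/+ in the heterozygotes. Dlx5 was at 0.241, 3.61, 3.39 and 1.68 CPM, overlapping Kat6a+/+ (-1.35, interval -2.82 to 0.13, FDR 0.384), and Dlx6 at 0, 1.47, 2.34 and 0.336 CPM (-2.10, interval -4.17 to -0.04, FDR 0.342). Dlx6os1 was at 0.0603, 3.01, 2.56 and 0.134 CPM (-2.43, interval -4.49 to -0.37, FDR 0.298). Sp8 was at 1.27, 1.81, 2.28 and 0.538 CPM, with an estimate above 0 (1.01, interval -0.05 to 2.07, FDR 0.367), and Gad1 at 0.904, 1.27, 0.0556 and 0.471 CPM (-0.44, interval -2.05 to 1.18, FDR 0.828). Of the 7 genes tested, limma called 0, as it did of all genes (0%), with 4 of 7 and 1926 of 13339 genes at an unadjusted p under 0.05, and edgeR and DESeq2 called 0 of the 7 as well. Without Kat6a+/- replicate 3, which had the highest Dlx1 of its group, Dlx1 (-3.72, FDR 0.0285) and Dlx2 (-2.91, FDR 0.0442) were called. In proliferating Kat6a+/- NSPCs Sp9 was at 0.805, 0.602, 1.55 and 0.195 CPM (-1.16, interval -2.13 to -0.19, FDR 0.582) and Gad1 at 6.28, 3.41, 6.12 and 4.78 CPM (0.63, interval -0.11 to 1.36, FDR 0.719), and limma, edgeR and DESeq2 called 0 of these 2, with 1 of 2 at an unadjusted p under 0.05.

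Kat6a-/- and Kat6a+/- differentiating NSPCs were compared to ask whether the second copy mattered. Dlx5 (-2.68, SE 0.75, FDR 0.0155), Sp8 (-2.41, SE 0.54, FDR 0.00497) and Sp9 (-2.85, SE 0.89, FDR 0.0264) were lower in Kat6a-/-, which made 3 of 7 called, where 37.5% of all genes were called and 18.5% were lower. Dlx1 (-0.02, interval -1.98 to 1.94) and Dlx2 (-0.54, interval -2.26 to 1.19) were not called, with intervals too wide to tell no change from a large one. Neither were Dlx6 (-1.67, FDR 0.225), Dlx6os1 (-1.66, FDR 0.238) and Gad1 (1.29, FDR 0.230). Kat6a+/- replicate 1, where Dlx1 was near the Kat6a-/- level, carried 50.2% of the quality weight of its group. Pooled counts, without weights, gave Kat6a-/- to Kat6a+/- ratios of 0.312 for Dlx1 and 0.390 for Dlx2. The Sp9 call was lost in 7 of 10 other settings (FDR up to 0.221), edgeR and DESeq2 included, the Sp8 call in 4 of 10 (FDR up to 0.104) and the Dlx5 call in 2 of 10 (FDR up to 0.0909), while Dlx6 was called by edgeR (-5.56, FDR 0.0411) and DESeq2 (-5.80, FDR 0.00192). No gene was called without Kat6a-/- replicate 1 or replicate 3, 2 were called without Kat6a+/- replicate 3, and 4 were called without Kat6a+/- replicate 1. In proliferating NSPCs neither Sp9 (-1.20, SE 0.58, FDR 0.167) nor Gad1 (0.60, SE 0.34, FDR 0.242) was called by limma, where 14.8% of all genes were, and 0 of 2 had an unadjusted p under 0.05. Without Kat6a+/- replicate 4, Sp9 was called (-1.70, FDR 0.0465).

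No DLX gene, Sp8 or Sp9 was called between conditions in Kat6a-/- NSPCs. The log2 fold-change of differentiating vs. proliferating cells was 0.47 for Dlx1, 1.20 for Dlx2, -0.08 for Dlx5, -0.48 for Dlx6, 0.03 for Dlx6os1, 1.49 for Sp8 and -1.03 for Sp9, with standard errors between 0.99 and 1.70, so that large changes in either direction remained possible. Gad1 was the 1 of 7 called, falling by 2.41 (SE 0.53, FDR 0.000406), where 69.3% of all genes were called and 33.5% were lower. In Kat6a+/- NSPCs 3 of 7 were called, where 69.7% of all genes were (35.4% higher and 34.2% lower): Dlx5 (3.90, SE 1.05, FDR 0.00234) and Sp8 (1.57, SE 0.68, FDR 0.0438) higher and Gad1 lower (-3.49, SE 0.71, FDR 0.000178). The Sp8 call was lost on leaving out any proliferating Kat6a+/- library or differentiating Kat6a+/- replicate 1, 2 or 3, in 7 of 24 such fits (FDR up to 0.114), and without a filter on low counts (FDR 0.0726) or with Y-linked reads as a term (FDR 0.0504). Dlx2 (3.16, FDR 0.0689) and Dlx6 (2.73, FDR 0.0687) were just short of a call.

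The difference between the Kat6a-/- and Kat6a+/+ responses to differentiation was tested as an interaction. It was -3.87 for Dlx5 (SE 1.61, FDR 0.110), -3.19 for Sp9 (SE 1.71, FDR 0.218), -3.95 for Dlx6os1 (SE 2.03, FDR 0.199), -2.82 for Dlx6 (SE 1.81, FDR 0.313), -2.70 for Dlx1 (SE 1.73, FDR 0.313), -2.44 for Dlx2 (SE 1.61, FDR 0.329), -0.43 for Gad1 (SE 0.78, FDR 0.757) and 0.39 for Sp8 (SE 1.25, FDR 0.867). Limma called 0 of the 7 coding genes, where 13.9% of all genes were called, and 1 of the 7, Dlx5, had an unadjusted p under 0.05. Dlx5 was called without differentiating Kat6a+/- replicate 1 (-3.87, FDR 0.0283). That the response of these genes differed between the genotypes was thus not established by this test, in which the proliferating levels rest on few or no counts.

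Cultures labelled with the same embryo could be followed across conditions. In the Kat6a+/+ embryo with matching Y-linked reads, Dlx2 went from 0.905 to 5.41 CPM, Dlx5 from 0 to 1.40 CPM and Sp9 from 1.01 to 3.81 CPM. In the 3 Kat6a-/- embryos Dlx2 went from 0.644 to 1.91, from 0.438 to 0.723 and from 0.0997 to 0.452 CPM, and Sp9 from 0.129 to 0.106, from 0.219 to 0 and from 0.199 to 0.0646 CPM. Dlx2 was therefore higher after differentiation in all 3 of these embryos, although its proliferating Kat6a-/- levels rest on 1 to 6 counts a library. The Sp9 levels rest on 0 to 2 counts a library and give no direction. Dlx1 went from 0.644 to 0.425, from 0.329 to 0.422 and from 0.0997 to 0.452 CPM in the same embryos. In the Kat6a+/- embryo Dlx2 went from 0.490 to 1.02 CPM and Sp9 from 1.55 to 1.02 CPM. Gad1 was lower after differentiation in all 6 labels, from 3.72 to 0.193 CPM in the matching Kat6a+/+ embryo and from 9.54 to 1.54, from 4.60 to 1.63 and from 10.2 to 0.904 CPM in the Kat6a-/- embryos.

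**Figure D3:**
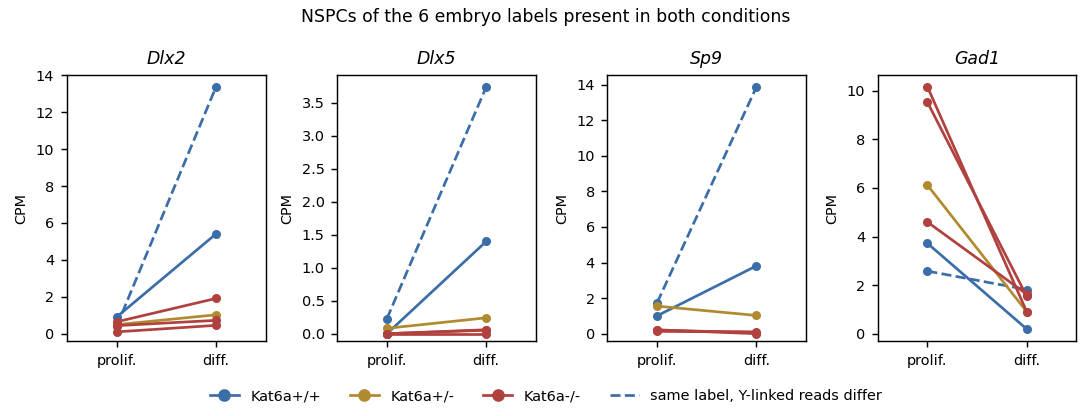
Levels of Dlx2, Dlx5, Sp9 and Gad1 (CPM, linear axes) in proliferating and differentiating NSPCs that carry the same embryo label, joined by lines. The Kat6a-/- lines stay below 2 CPM for Dlx2 and Sp9, Gad1 is lower after differentiation in all 6 labels, and the dashed line joins the Kat6a+/+ libraries whose Y-linked reads differ.

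Neighbouring genes varied together from library to library. Over the 12 differentiating libraries, as a description, Pearson's r of log2 CPM was 0.948 between Dlx1 and Dlx2 and 0.944 between Dlx5 and Dlx6, and 0.911 and 0.943 for deviations from the group means. It was 0.815 between Dlx2 and Sp9 (0.745 for deviations) and 0.621 between Dlx1 and Dlx5 (0.641 for deviations). Gad1 ranged from -0.346 with Dlx5 to 0.067 with Dlx2, so it did not follow the DLX genes. These libraries share litters, and the lowest levels rest on few counts. The 6 other genes most like the mean of the 7 tested genes, of 12644 compared, were Ubald2 (r = 0.915), Ankrd54 (0.915), Hnrnpa0 (0.914), Hmgn1 (0.913), U2af2 (0.913) and Zfp532 (0.912). In differentiating NSPCs Ubald2 averaged 22.4 CPM with both copies of Kat6a, 20.5 CPM with 1 copy and 15.6 CPM without (SD 2.40, 3.41 and 0.982, n = 4 each). In proliferating NSPCs only Sp9 and Gad1 could be averaged, and these move in opposite directions. The 6 closest of 12153 genes there were Phf21a (r = 0.868), Rprd1a (0.837), Gemin8 (0.806), Cxxc5 (0.806), Ccdc28b (0.803) and Naprt (0.799).

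Regulators that act before the DLX genes in the ventral telencephalon changed in both directions in differentiating Kat6a-/- NSPCs. Gsx1, a homeobox gene that with its paralogue Gsx2 switches on Dlx1 and Dlx2, was at 5.39, 1.69, 2.41 and 3.86 CPM in Kat6a+/+ and at 0.138, 0.106, 0.0603 and 0.258 CPM in Kat6a-/- libraries (log2 fold-change -4.16). Gsx2 was at 3.63, 0.328, 1.30 and 0.545 CPM against 0.138, 0, 0 and 0.129 CPM (-3.62). Neither gene overlapped between these genotypes. Of the 17 genes of this list 14 were tested, 8 were lower, 3 higher and 3 not called, with a median of -0.57, where 27.7% of all genes were lower. The higher ones included Shh, the secreted ventralising signal (2.76), and Nr2f2, a caudal ganglionic eminence transcription factor gene (2.54). In proliferating NSPCs 12 were tested and 3 were called, all higher, among them Nr2f2 (3.18) and Olig1 (0.26), where 30.0% of all genes were called and 16.2% were higher.

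Transcription factor genes that act below the DLX genes were mixed. For the counts of this and the following lists, 54.4% of all genes were called in differentiating cells, 27.7% lower and 26.7% higher. In proliferating cells 30.0% were called, 13.8% lower and 16.2% higher. A list with shares near these is not set apart from other genes by its count. In differentiating NSPCs all 11 tested of 15 were called, 8 lower and 3 higher, with a median of -0.76. Among the largest changes were those of Npas1 (1.68), Cux2 (-1.26) and Satb1 (-1.02). In proliferating NSPCs 3 of 11 were higher and 3 lower, among them Maf (1.60), Sall3 (-1.05) and Cux2 (0.77). Genes of interneuron migration and adhesion had 5 lower and 2 higher of 12 tested in differentiating cells, led by Dcx (-4.51), the microtubule protein of migrating neurons, the chemokine receptor gene Cxcr4 (-1.38), the neuregulin receptor gene Erbb4 (-0.95) and the semaphorin receptor gene Nrp1 (0.95). In proliferating cells 7 of 11 were higher and 1 lower, led by Epha4 (1.46), Robo2 (1.33), Ackr3 (1.02) and Plxna4 (-0.94).

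Genes of striatal and olfactory bulb neurons, the other products of DLX-expressing progenitors, had 7 lower and 3 higher of 13 tested in differentiating cells, with a median of -0.65. Bcl11b (-2.16), Meis2 (-1.78), Tshz2 (-0.87) and Sall1 (-0.86) changed most. In proliferating cells 4 of 13 were lower and 3 higher, with Rarb (1.96), Bcl11b (-1.64), Meis2 (-0.92) and Ebf1 (-0.76) first. Of the interneuron subtype genes, only 4 of 14 were expressed enough to be tested in differentiating cells, and the neuropeptide gene Npy was lower (-3.54) and Pvalb, a calcium-binding protein gene, higher (1.22). In proliferating cells 2 were tested and none was called, with estimates of -0.62 and -0.15. Other DLX and SP family genes had 4 of 11 tested in both conditions. Sp4 (-0.69) and Sp1 (-0.12) were lower in differentiating cells, and in proliferating cells none was called, with estimates from -0.16 to 0.11.

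Of the genes that handle GABA after its synthesis, 3 of 6 tested were higher and none lower in proliferating Kat6a-/- NSPCs, among them Abat (1.50), which encodes the transaminase that breaks GABA down, and Aldh5a1 (0.54), which acts after Abat. Abat averaged 91.4 CPM in Kat6a-/- and 29.1 CPM in Kat6a+/+ proliferating NSPCs (SD 47.0 and 6.24, n = 4 each), without overlap. In differentiating cells 3 of 6 were lower and 1 higher, and the lower ones were Slc6a11, a GABA transporter gene (-2.84), Aldh5a1 (-1.13) and Glul (-1.003), which encodes glutamine synthetase. The Slc6a11 libraries ranged from 4.59 to 16.0 CPM in Kat6a+/+ and from 0.723 to 19.0 CPM in Kat6a-/-, so they overlapped.

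**Figure D4:**
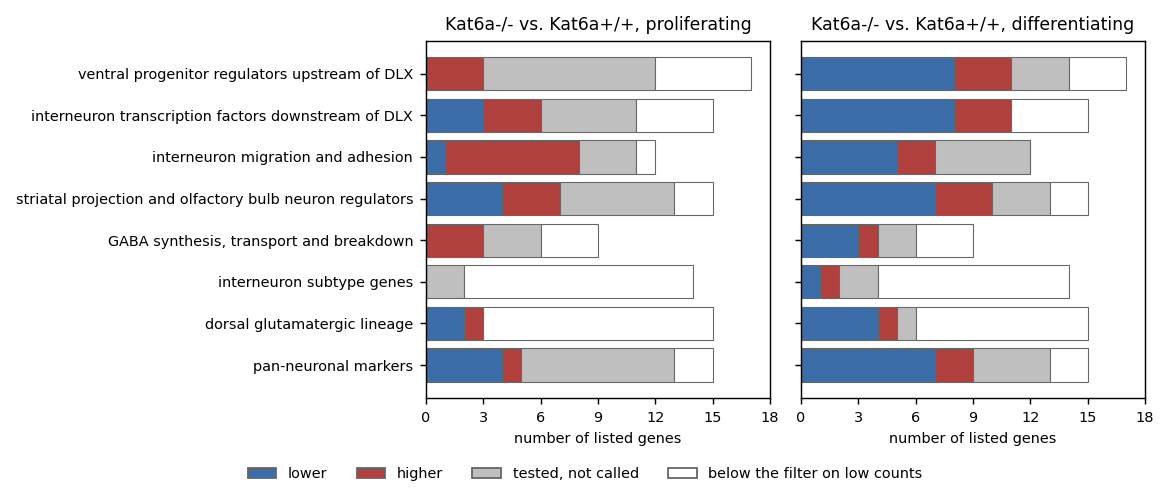
Number of genes of each list that were lower, higher or not called in Kat6a-/- vs. Kat6a+/+ NSPCs, or that fell below the filter on low counts, in proliferating (left) and differentiating (right) cells. Lower calls outnumber higher ones for all 8 lists but the interneuron subtype genes, with 1 each, in differentiating cells, and 12 of 14 interneuron subtype genes fell below the filter in proliferating cells. Over all genes tested, 27.7% were lower and 26.7% higher in differentiating cells, and 13.8% lower and 16.2% higher in proliferating cells.

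Markers of other cells moved with genotype beside these results, and their part in them was not tested. Their counts, here and in the next paragraph, stand beside 54.4% of all genes called in differentiating and 30.0% in proliferating cells. Of the dorsal glutamatergic lineage genes, 4 of 6 tested were lower and 1 higher in differentiating Kat6a-/- NSPCs, with Eomes (-4.29), Neurog2 (-2.42), Neurod1 (2.12) and Emx2 (-0.96), and their summed level was 71.8 to 99.9 CPM in Kat6a+/+ and 41.0 to 59.9 CPM in Kat6a-/- libraries. The DLX genes were thus not alone: genes of the dorsal lineage, of which Emx1 and Neurog1 are defining and at or near 0, were lower as well. In proliferating cells 2 of 3 were lower and 1 higher, among them Emx2 (-1.35) and Lhx2 (0.39). Of the pan-neuronal markers, 7 of 13 were lower and 2 higher in differentiating cells, with Dcx (-4.51), Elavl4 (-3.98), Snap25 (-2.996) and Stmn2 (2.44), although the summed level overlapped, at 624 to 833 CPM in Kat6a+/+ and 562 to 938 CPM in Kat6a-/- libraries. In proliferating cells 4 of 13 were lower and 1 higher, with Rbfox3 (-1.78), Stmn3 (-1.22), Tubb3 (-1.19) and Elavl4 (-0.62).

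Stem cell and radial glia markers had 6 lower and 3 higher of 10 in differentiating cells, led by Hes5 (-4.58), a Notch target, and 3 in each direction in proliferating cells, led by Prom1 (-1.08). Astrocyte markers had 4 of 6 higher and none lower in proliferating cells, led by Gfap (3.51). Their summed levels were 209 to 248 CPM in Kat6a+/+ and 426 to 563 CPM in Kat6a-/- libraries, the group in which Gad1 and Abat were also called higher. In differentiating cells 1 of 7 was higher, S100b (2.33), and 2 were lower, Aqp4 (-1.61) and Aldh1l1 (-1.31). Oligodendrocyte markers had 2 higher and 2 lower of 5 in differentiating cells, led by Pdgfra (-2.28), and 1 lower of 5, Myrf (-0.76), in proliferating cells. Mesenchymal and meningeal markers had 4 of 4 tested higher in differentiating cells, led by Col1a1 (5.19), with sums of 32.5 to 66.1 CPM in Kat6a+/+ and 43.4 to 276 CPM in Kat6a-/- libraries, and none of 1 called in proliferating cells (0.01). Endothelial and mural markers had 1 higher and 1 lower of 2 in differentiating cells, Rgs5 (2.47) and Kdr (-2.52), and none of 2 called in proliferating cells, with estimates of -0.92 and 0.21. Microglial markers were below the filter in differentiating cells, and P2ry12 alone was tested and higher in proliferating cells (2.51), with sums of 1.27 to 1.41 CPM in Kat6a+/+ and 6.38 to 8.25 CPM in Kat6a-/- libraries and the defining markers Cx3cr1 and Tyrobp at 0 in both.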

How the data were processed

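RNA-seq counts per gene were deposited by the authors for each of the 24 libraries, made from stranded mRNA libraries of 200 ng RNA. Per the labels, the submitters' processing notes name bcl2fastq, featureCounts and mm39, and versions and the strand setting are not given in the sources used here. The deposited counts were whole numbers. CPM were computed from totals over filtered protein-coding genes and TMM factors of the fit to all 24 libraries. Genes were filtered with filterByExpr. R 4.3.3, limma 3.58.1 and edgeR 4.0.16 were used. Proliferating libraries were fitted by limma-voom with litters as random effects (correlation within a litter 0.287). Differentiating libraries were fitted by limma-trend with library quality weights and a prior count of 2. Comparisons between conditions and the interaction were fitted on all 24 libraries together by limma-voom with litters as random effects (correlation 0.00363), without quality weights. Embryo label was not a term of this fit, so cultures of the same label were tied only through their litter. Embryo label as a random block was among the alternatives. Robust empirical Bayes and Benjamini-Hochberg FDR over all genes tested were used, and a gene was called at FDR under 0.05. Dlx6os1 came from the same fits over genes of every biotype. Log2 fold-changes are two-sided tests of the first named group minus the second. Each fit was tested on simulated data.

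The members and lists were chosen with earlier results of these data known. All 9 genes are named, and of each list up to 4 called genes with the largest fitted changes, except some that are not reported here. Alternatives were edgeR's quasi-likelihood test, DESeq2 1.42.0, library totals, no filter, genes of every biotype, litter, Y-linked reads or replicate number as fixed terms, changed weights or blocks, and leaving out each library, for which the within-litter correlation was held at the value of the full fit. Positions and promoter windows are from GRCm39, the assembly also called mm39. Each line came from 1 embryo, and embryos of a litter share a mother, so p-values measure the spread between cultures of these embryos. Intervals on counts cover counting error only.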

Additional observations from a re-analysis of the deposited data

Results flagged for a closer look

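In 7 of 48 groups of 4 libraries, 1 library's gap to its nearest neighbour exceeded Dixon's 95% critical value for 4 samples, as a share of the group's range. Chance gives this in about 1 in 20 groups, a rate that does not apply to 4 of the 7, where the other 3 libraries are at 0, since any count then exceeds the value. In differentiating Kat6a-/- replicate 1, Dlx1 was at 0.688 CPM (next 0.452 CPM), Dlx6os1 at 0.413 CPM (next 0 CPM) and Sp9 at 1.38 CPM (next 0.106 CPM), so that 3 of the 7 came from this library. The others were Dlx6 in differentiating Kat6a-/- replicate 2 at 0.0531 CPM (next 0 CPM), Dlx2 in proliferating Kat6a+/+ replicate 3 at 0.905 CPM (next 0.421 CPM), Dlx6 in proliferating Kat6a+/- replicate 1 at 0.161 CPM (next 0 CPM) and Gad2 in differentiating Kat6a+/- replicate 2 at 0.201 CPM (next 0 CPM). Several of these values rest on 1 to 3 counts.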

How the results depend on the processing

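In Kat6a-/- vs. Kat6a+/+ differentiating NSPCs, the 6 calls became 1 with litter as a fixed term, 2 with Y-linked reads, 3 without quality weights and 3 with limma-voom and litter as random block, and Dlx6os1 was not called with litter (-4.36) or Y-linked reads (-2.91). In proliferating NSPCs the 2 calls became 1 with edgeR and 1 with litter. In Kat6a-/- vs. Kat6a+/- differentiating NSPCs the 3 calls became 0 with litter and 1 with limma-voom, and DESeq2 called Dlx6os1 (-3.83). Between conditions in Kat6a+/-, edgeR and DESeq2 each called 5, and Dlx6os1 was called with edgeR (4.28), DESeq2 (4.43) and no filter (2.76). The interaction called 1 gene, Dlx5, with no filter and 1 with litter. Directions reversed only for changes that were not called: Gad1 in Kat6a+/- vs. Kat6a+/+ with litter (0.64) and Y-linked reads (0.31), Sp8 in the interaction with no filter (-0.034), and between conditions in Kat6a-/- Dlx5 (edgeR 2.23, DESeq2 0.57), Dlx6 (edgeR 1.51), Sp9 (edgeR 0.38, DESeq2 0.46) and Dlx6os1 (library totals -0.045). The causes were not tested.

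Leaving out 1 library at a time gave 0 to 6 calls in differentiating and 1 to 2 in proliferating Kat6a-/- vs. Kat6a+/+, 0 to 4 and 0 to 1 in Kat6a-/- vs. Kat6a+/-, 0 to 2 in differentiating and 0 to 0 in proliferating Kat6a+/- vs. Kat6a+/+, 0 to 1 in the interaction, and between conditions 5 to 6, 2 to 4 and 1 to 1 in Kat6a+/+, Kat6a+/- and Kat6a-/-. Dlx6os1 ranged from -4.57 to -3.32 in Kat6a-/- vs. Kat6a+/+, from -3.53 to -0.71 in Kat6a-/- vs. Kat6a+/-, and between conditions from 1.99 to 3.70 in Kat6a+/- and from -0.94 to 0.40 in Kat6a-/-. Ranges that crossed 0 were those of Dlx5 (-2.21 to 0.32) and Gad1 (-1.23 to 0.15) in Kat6a+/- vs. Kat6a+/+, Dlx1 (-1.47 to 0.66) and Dlx2 (-1.63 to 0.20) in Kat6a-/- vs. Kat6a+/-, Dlx1 between conditions in Kat6a+/- (-0.52 to 1.68), Dlx1 (-0.013 to 0.75) and Dlx5 (-0.34 to 0.17) between conditions in Kat6a-/-, and Sp8 in the interaction (-0.74 to 0.95).

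Same replicate numbers did not pair the samples, whose deviations correlated from -0.483 to 0.545. With the replicate block the differentiating Kat6a-/- vs. Kat6a+/+ comparison called 6, with Gad1 called (1.65, FDR 0.0216) and Sp8 not (FDR 0.0508), and in Kat6a-/- vs. Kat6a+/- Dlx1 was 0.15, Gad1 was called (2.42, FDR 0.0232), and Dlx5 (FDR 0.0505) and Sp9 (FDR 0.0742) were not.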
